A study of Mus musculus with 22 samples.

Results

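The genes described here are the nuclear genes for the subunits of respiratory complexes II to V, measured by RNA-seq in mouse spinal cord. They were picked by symbol from the deposited count table: Sdha to Sdhd for complex II, Cyc1 and symbols starting with Uqcr for complex III, symbols starting with Cox4 to Cox8 for complex IV, and symbols starting with Atp5 for complex V, all protein coding. Of 21995 genes in the table, 48 met this rule, with 4 for complex II, 9 for complex III, 18 for complex IV and 17 for complex V. Most members are subunits of the enzymes, but Cox7a2l encodes a factor that joins complexes III and IV into larger assemblies, and Atp5s encodes a coupling factor of the ATP synthase.

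The inner mitochondrial membrane carries electrons from fuels to oxygen and uses the energy to make ATP. Complex II takes electrons from succinate, complex III passes them to cytochrome c, complex IV hands them to oxygen, and complex V makes ATP from the proton gradient that complexes III and IV help to build. Complex II is encoded in the nucleus alone, whereas complexes III, IV and V also contain subunits encoded by mitochondrial DNA, and neurons depend on all of them for the ATP that their long axons and synapses use.

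All mice were of the strain C57BL/6, and each library came from the spinal cord of 1 mouse. The aging comparison set 8 Old mice of genotype Wild type, 18 to 24 months of age, against 8 Young mice of genotype Wild type, 3 to 4 months of age, all prepared with the Roche RNA KAPA Hyperprep kit. The comparison for amyotrophic lateral sclerosis (ALS) set 3 mice of genotype G93a against 3 mice of genotype Wild type, all labelled 5 to 6 months of age and prepared with Illumina TruSeq. The study asked how transcription in the cord changes with age and with the SOD1 G93A transgene, and the values below address this for the members of complexes II to V.

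The G93a mice carry many copies of a mutant human SOD1 gene, so they model an inherited form of the disease. By the study's methods the young and old mice were male, and each ALS group held females and a male, so sex cannot be told apart from the other differences between the experiments. Kit and experiment cannot be told apart either, and levels are therefore compared only within an experiment. The columns of the tables carry identifiers (d4435, for example) but not the replicate numbers of the labels, so libraries are named here by those identifiers.

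Library totals were 5078092 to 9358055 counts in Young (median 7957405) and 5664869 to 9145600 in Old (median 7305629). In the ALS experiment the controls had 10693060, 12080159 and 13219797 counts, and the G93a libraries had 11872431 (d4435), 9675610 (d4437) and 10926373 (d4443). At these depths 3 counts correspond to between 0.227 and 0.591 CPM (counts scaled to a common library size), which is the limit below which a level cannot be told from 0 in a library. CPM here are scaled by TMM factors (trimmed mean of M values, a correction for differences in library composition). Together the members took 0.653% to 0.875% of the counts in Old, 0.679% to 0.819% in Young, 0.7% to 0.724% in controls and 0.591% to 0.664% in G93a.

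The tissue label was checked against marker genes. Among 14 neuron markers, Snap25 was the most abundant with a mean of 2487 CPM in Young and 2819 CPM in controls, and the oligodendrocyte gene Mbp reached 15164 and 14864 CPM. All 9 motor neuron markers were detected in both experiments, including Chat at 14, 19.3 and 30.7 CPM in the controls. Skeletal muscle was close to absent: 9 of 15 markers, among them Acta1, Ckm and Myh4, lay under 1 CPM in the aging libraries and 11 of 15 did in the ALS libraries.

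Levels of different genes are compared per length, as FPKM (fragments per kilobase of transcript, scaled to library size) from the second deposited table. In Young, 35 of 48 members lay above 100 FPKM, the median member stood at 153.8 FPKM, and the median gene of the table stood at 2.82 FPKM. Atp5b, the catalytic beta subunit of the ATP synthase, had the highest level of all members in each of the 4 groups, with 847 ± 34.1 FPKM (SD, n = 8) in Young and 674 ± 38.2 FPKM (SD, n = 3) in controls. Cox4i1, the common form of a complex IV subunit that regulates the enzyme, came next in each group, with 655 ± 47.7 FPKM in Young. The ranges of these leading genes did not overlap in Young, 810 to 915 FPKM for Atp5b and 559 to 722 FPKM for Cox4i1.

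The summed levels of the complexes depend on how many members each has. Complex V had 3883 FPKM in Young, complex IV 3543 FPKM, complex III 1303 FPKM and complex II 417 FPKM. Within complex II the flavoprotein gene Sdha was highest at 165 FPKM and the membrane anchor gene Sdhd lowest at 54.3 FPKM. Within complex III the Rieske iron-sulfur protein gene Uqcrfs1 was lowest at 63.6 FPKM, and the highest depends on the lengths used. It was the hinge protein gene Uqcrh in the deposited FPKM, at 308 beside 134 for Uqcrc1, and Uqcrc1 in FPKM recomputed from counts, at 403 beside 352 for Uqcrh. The 8 members with the lowest levels in Young were all alternative isoforms, and Atp5s came next at 10.1 FPKM.

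The alternative isoforms were a small share of their pairs in the cord. In Young, Cox4i2 made up 0.331% of the summed FPKM of Cox4i1 and Cox4i2, Cox6a2 made up 0.055% of its pair with Cox6a1, and Cox6b2 made up 0.689% of its pair with Cox6b1. Cox7a1, a form known from heart and skeletal muscle, made up 3.46% of its pair with Cox7a2. The membrane rotor of the ATP synthase is built from c subunits, and of the 3 genes that encode the same mature c subunit, Atp5g3 gave 65.4% of the FPKM in Young, Atp5g1 33.9% and Atp5g2 0.711%. In the controls of the ALS experiment the same genes gave 69.9%, 27.4% and 2.7%. With FPKM recomputed from counts and transcript length Atp5g1 is much lower: Atp5g3 had 273 FPKM in Young, Atp5g1 39.1 FPKM and Atp5g2 2.95 FPKM.

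Promoters are shown for 6 members, because each comparison had called members in more than 1 complex and factors that bind near the start sites of respiratory genes are known to act on many of them. The 250 bases upstream of the annotated start come from RefSeq, build GRCm38.p6, where 36 of 48 members had an entry. Capitals mark matches to GCGCANGCG, the core of the NRF1 motif, or CCGGAAG, an ETS motif that GABPA binds, on either strand. Of 32851 promoters of this length, 5.16% held the NRF1 letters and 6.91% the ETS letters. Among the members it was 8 of 36 (22.2%) for NRF1 and 9 of 36 (25%) for ETS, with both in Sdhd, Cox6a1, Atp5h and Atp5l. A member counts here if any of its promoter entries matched, whereas the shares over all promoters count entries. Those shares were also not limited to genes expressed in the cord. By complex, the NRF1 letters were in 2 of 3 promoters of II, 0 of 5 of III, 1 of 13 of IV and 5 of 15 of V. The ETS letters were in 1, 2, 2 and 4 of these. No promoter of complex III is among those shown. A match is a description of letters, and binding was not measured.

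The promoter of Sdha (chr13:74350241-74350490, minus strand) held 3 NRF1 matches, and that of Cox6a1 (chr5:115348959-115349208, minus strand) held 3 NRF1 matches, a pair of them overlapping, and 1 ETS match. The promoter of Cox6b1 (chr7:30626115-30626364, minus strand) held 1 ETS match, whereas that of its isoform Cox6b2 (chr7:4753095-4753344, minus strand) held neither motif. Atp5h (chr11:115419920-115420169, minus strand) held 1 of each, and Atp5k (chr5:108434400-108434649, minus strand) held an overlapping pair of NRF1 matches.
Sdha: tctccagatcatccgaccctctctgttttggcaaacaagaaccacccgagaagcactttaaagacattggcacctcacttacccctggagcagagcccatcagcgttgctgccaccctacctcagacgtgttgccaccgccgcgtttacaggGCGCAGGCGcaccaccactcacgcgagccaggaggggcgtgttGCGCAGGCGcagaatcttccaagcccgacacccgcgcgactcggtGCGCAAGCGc
Cox6a1: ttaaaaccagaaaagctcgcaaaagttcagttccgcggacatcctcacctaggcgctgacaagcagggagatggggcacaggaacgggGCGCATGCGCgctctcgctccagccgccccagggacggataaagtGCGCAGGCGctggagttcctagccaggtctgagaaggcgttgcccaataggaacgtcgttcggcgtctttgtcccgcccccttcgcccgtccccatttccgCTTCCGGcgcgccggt
Cox6b1: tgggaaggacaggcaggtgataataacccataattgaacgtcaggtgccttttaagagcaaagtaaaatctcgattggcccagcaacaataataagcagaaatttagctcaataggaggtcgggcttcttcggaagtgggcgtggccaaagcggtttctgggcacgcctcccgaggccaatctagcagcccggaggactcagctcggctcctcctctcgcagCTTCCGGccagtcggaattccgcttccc
Cox6b2: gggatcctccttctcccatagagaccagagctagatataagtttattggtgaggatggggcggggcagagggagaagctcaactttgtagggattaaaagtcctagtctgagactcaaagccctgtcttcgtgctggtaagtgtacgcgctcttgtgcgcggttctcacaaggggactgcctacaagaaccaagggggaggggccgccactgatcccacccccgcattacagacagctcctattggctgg
Atp5h: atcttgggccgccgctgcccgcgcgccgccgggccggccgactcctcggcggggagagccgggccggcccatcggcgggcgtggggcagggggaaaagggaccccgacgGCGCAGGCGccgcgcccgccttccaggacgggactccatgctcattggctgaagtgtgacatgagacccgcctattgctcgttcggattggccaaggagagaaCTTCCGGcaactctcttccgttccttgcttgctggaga
Atp5k: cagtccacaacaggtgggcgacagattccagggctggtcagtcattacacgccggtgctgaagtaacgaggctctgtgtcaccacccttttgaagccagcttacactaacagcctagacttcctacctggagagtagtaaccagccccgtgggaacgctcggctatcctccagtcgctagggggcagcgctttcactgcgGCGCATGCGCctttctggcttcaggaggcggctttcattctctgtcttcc

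In aging, 13 members were called higher in Old than in Young, and among the common subunits the largest rise was that of Cox6a1, by 19%. Of 44 members tested, 39 had a positive log2 fold change, and the median was 0.10 on the log2 scale against -0.003 over all 13647 genes tested. By edgeR's quasi-likelihood test with Benjamini-Hochberg adjustment over all genes, where a gene is called at an adjusted p under 0.05, 13 of 44 members were called higher in Old, beside 13.5% of all genes tested. No member was called lower by edgeR, beside 12.9% of all genes. At an unadjusted p under 0.05 edgeR had 16 members higher and 1 lower, beside 2584 and 2548 of all 13647 genes. DESeq2 called 14 higher and 1 lower, beside 10.6% and 9.75% of genes. The study also required at least a doubling or halving of level (a log2 value past 1), and with that added 0 members were called by edgeR and 1 by DESeq2 (Cox6a2, higher), beside 2.18% of genes higher and 0.044% lower. No member had all Old libraries above all Young libraries, beside 3.66% of genes, or all below, beside 1.66%.

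**Figure D1:**
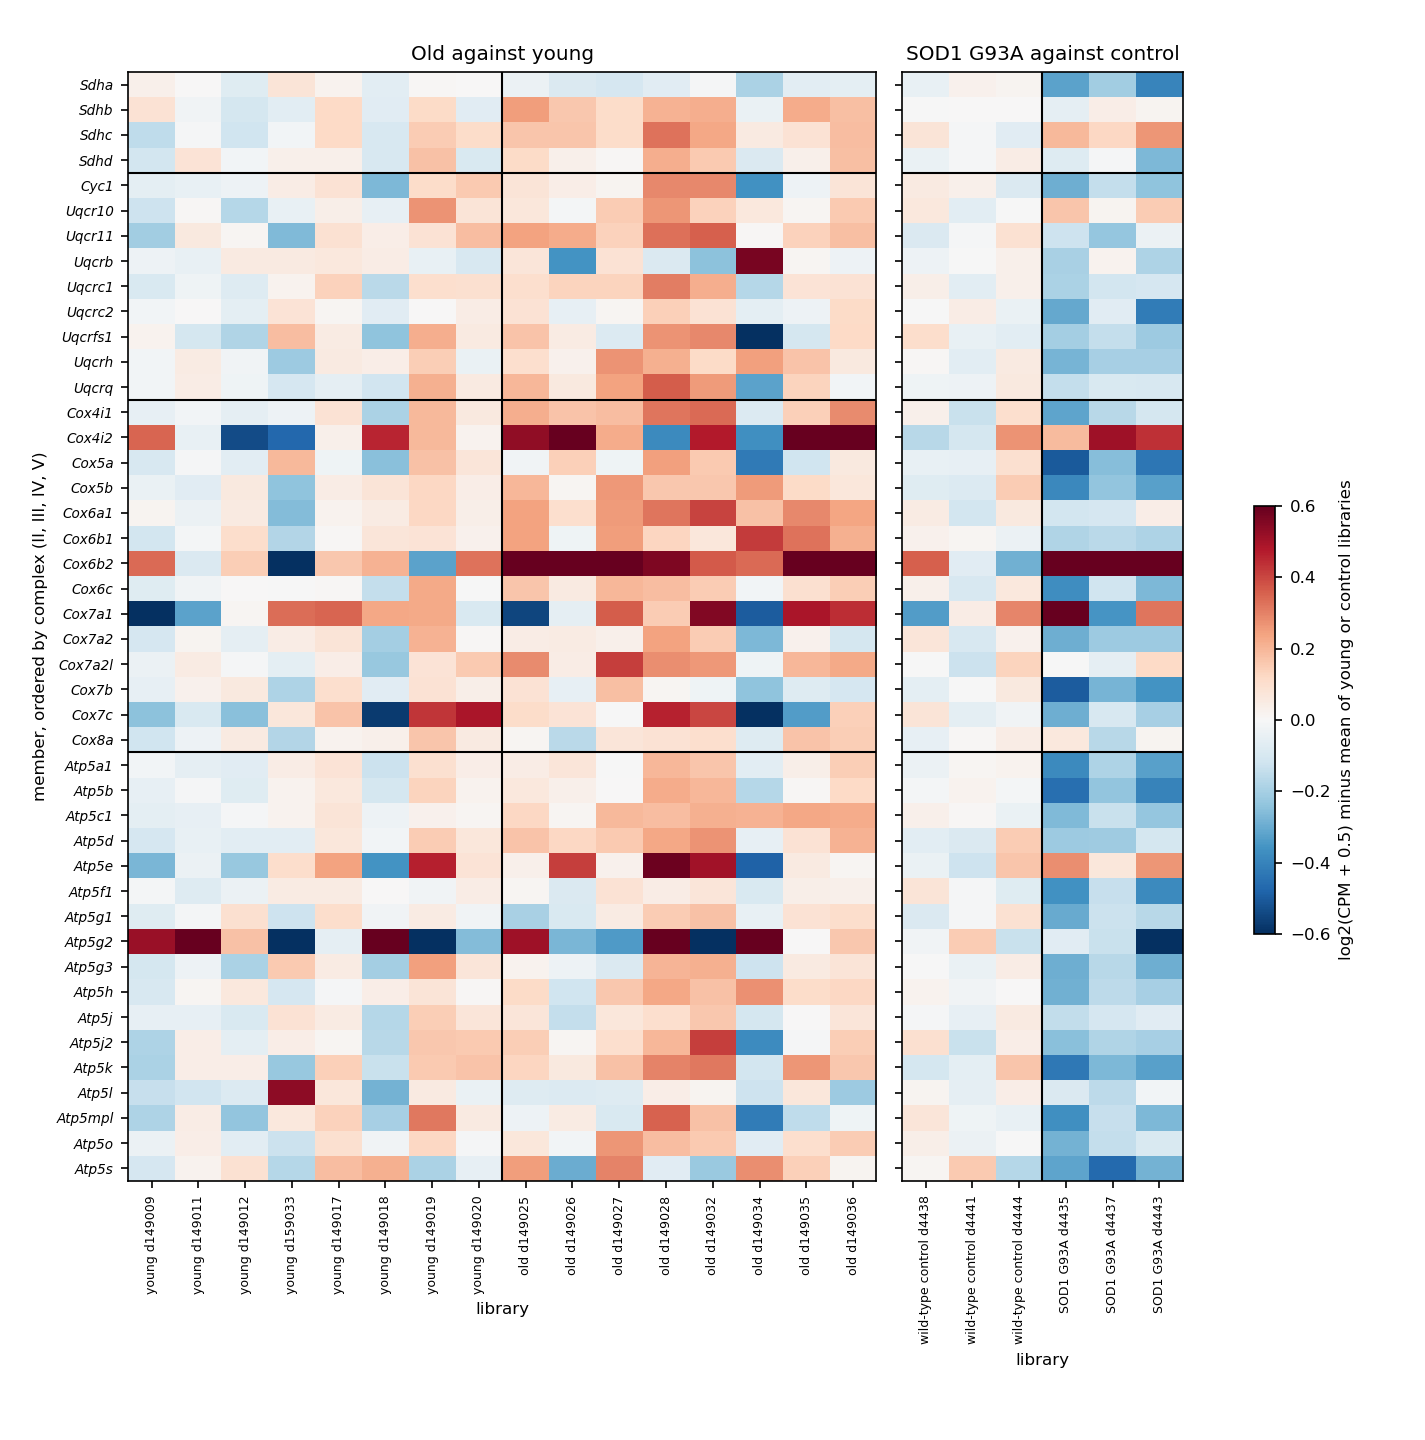
Each column is a library and each row a member tested in both comparisons, ordered by complex with black lines between them. Colour gives log2(CPM + 0.5) minus the mean of the Young or the control libraries, capped at 0.6 in either direction. Most rows are faintly red in Old and blue in the 3 G93a columns, where d4437 is paler than d4435 and d4443, and Old d149034 differs from the other Old columns in many rows.

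The aging counts change when transcript length is taken into account. The members are short, with a median transcript length of 652 bases against 1949 over the table. More short transcripts were called higher than lower in Old. Among 2041 genes with transcripts up to 948 bases, 21.5% were called higher and 6.47% lower, and the median log2 fold change was 0.08. With an offset per library fitted on GC content and length, the members' median was -0.019 beside -0.036 for all genes, or 0.02 relative to them, with 1 member called higher and 2 lower, while 9.94% of all genes were higher and 14.4% lower. After recentring these offsets, an alternative chosen after seeing the data, the members' median was 0.03, and 3 members were called higher and 1 lower, with 13.4% of genes higher and 8.64% lower. Under both the recentred offsets and those from length alone, the calls of Sdhb, Sdhc, Uqcr11, Uqcrh, Cox4i1, Cox5b, Cox6b1, Cox7a2l, Atp5d and Atp5h ended, and with GC content alone those of Sdhc and Cox5b did. Leaving out Young d149009 reduced the count of members called higher to 8, beside 12.2% of all genes. In bulk samples a higher or lower level cannot be split into more or fewer cells and more or less RNA per cell.

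Complex II oxidises succinate, and 2 of its 4 members were called higher in aging, beside 13.5% of all genes. Sdhb, which carries the iron-sulfur clusters, ranged from 102 to 119 CPM in Young (median 106) and from 106 to 130 CPM in Old (median 125). Sdhc, a membrane anchor that helps to hold the haem, ranged from 87.4 to 108 CPM in Young (median 96.3) and from 101 to 122 CPM in Old (median 109). In both genes all 8 Old libraries lay above the Young median, while d149027 and d149034 were among the Old libraries inside the Young range. Sdhb rose by 0.16 ± 0.05 (log2, SE), adjusted p 0.0137, and Sdhc rose by 0.17 ± 0.05, adjusted p 0.0208. Without Old d149028, Young d149009 or Young d149012 the adjusted p of Sdhc was 0.0527, 0.0507 and 0.0502. Under the GC and length offsets Sdhb came to -0.007 (adjusted p 0.927) and Sdhc to 0.00 (adjusted p 0.997).

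Sdha, the flavoprotein that holds the active site and whose promoter with 3 NRF1 matches is printed above, was not called. It ranged from 451 to 501 CPM in Young (median 477) and from 416 to 473 CPM in Old (median 454). All 8 Old libraries lay below the Young median, and 3 lay below the whole Young range. The fold change was -0.08 ± 0.04 on the log2 scale with adjusted p 0.122. DESeq2 called 1 member of complex II lower, and the edgeR fit with GC and length offsets also called 1, at which Sdha stood at -0.16 (log2).

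Complex III passes electrons from ubiquinol to cytochrome c, and all 9 of its members had a positive fold change in aging. Uqcr11, a small accessory subunit, ranged from 49.9 to 68.3 CPM in Young (median 62.1) and from 60.2 to 77 CPM in Old (median 69). Uqcrh, the hinge protein near the cytochrome c1 site, ranged from 144 to 185 CPM in Young (median 168) and from 170 to 201 CPM in Old (median 184). For each of these genes 4 Old libraries lay above all Young libraries and the rest overlapped them. Uqcr11 rose by 0.20 ± 0.06 (log2, SE, adjusted p 0.0219) and Uqcrh rose by 0.15 ± 0.05 (adjusted p 0.0262). Uqcrc1, a core subunit, was not called, with 0.12 ± 0.06 and adjusted p 0.141. In this gene Old d149034 at 190 CPM lay below all Young libraries. Without Old d149034 Uqcrc1 was called (0.15, adjusted p 0.0197). The share of all genes called higher was then 15.9%, beside 13.5% with all libraries.

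The calls in complex III were close to the threshold. Uqcr11 had adjusted p 0.0504 without Old d149028, 0.0542 without Old d149032 and 0.0527 without Young d149009. Uqcrh had adjusted p 0.0575 without Old d149027, 0.0513 without Old d149028, 0.0522 without Young d149012, 0.0544 without Young d149020 and 0.0645 without Young d159033. Neither was called with the GC and length offsets, at 0.04 (adjusted p 0.567) for Uqcr11 and 0.03 (adjusted p 0.71) for Uqcrh.

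Complex IV, cytochrome c oxidase, had 6 of 14 members called higher in aging, beside 13.5% of genes. Its member Cox6a1 had the smallest adjusted p of the members tested. Cox6a1, the common form of a small subunit at the surface of the enzyme, ranged from 151 to 198 CPM in Young (median 185) and from 194 to 241 CPM in Old (median 215). Of 8 Old libraries 7 lay above every Young library, and Old d149026 overlapped the upper end of Young. The rise was 0.25 ± 0.05 (log2, SE), adjusted p 6.0e-04. It kept the call without each library in turn, and ended it with the GC and length offsets (0.10, adjusted p 0.123), though not after these were recentred (0.15).

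Cox7a2l, the assembly factor for supercomplexes, ranged from 122 to 159 CPM in Young (median 144) and from 140 to 191 CPM in Old (median 169). Cox6b1, which lies where paired complex IV enzymes touch, ranged from 164 to 200 CPM in Young (median 188) and from 183 to 249 CPM in Old (median 218). In each gene 6 of 8 Old libraries lay above every Young library, and Old d149026 was inside the Young range. Cox7a2l rose by 0.21 ± 0.06 (log2, SE, adjusted p 0.00892) and Cox6b1 rose by 0.21 ± 0.06 (adjusted p 0.00895). Cox4i1 rose from a Young median of 404 CPM (360 to 470) to an Old median of 472 CPM (388 to 520), with 4 Old libraries above all Young ones, by 0.20 ± 0.06 (adjusted p 0.0115). These calls held without each library in turn and ended with the GC and length offsets, with adjusted p of 0.289, 0.441 and 0.553.

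Cox5b, the zinc-binding subunit, was the last complex IV member called among the common forms. It ranged from 155 to 199 CPM in Young (median 188) and from 184 to 219 CPM in Old (median 204). Of 8 Old libraries 5 lay above every Young library, and the rest overlapped them. The rise of 0.15 ± 0.05 (log2, SE) had adjusted p 0.0261. It was 0.0534 without Old d149025, 0.0549 without Old d149027, 0.0508 without Young d149009, 0.0633 without Young d149011 and 0.0624 without Young d159033. The GC and length offsets ended the call (-0.014, adjusted p 0.879), in a setting where the median of all genes was -0.036. Cox7a2, Cox7b and Cox8a, the common forms of 3 further small subunits, were not called, with adjusted p of 0.789, 0.774 and 0.584.

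Complex V makes ATP, and its called members sit in the rotor stalk and the outer stalk. Atp5c1, the gamma subunit that turns inside the catalytic head, ranged from 195 to 215 CPM in Young (median 204) and from 205 to 239 CPM in Old (median 234). Of 8 Old libraries 7 lay above every Young library, and d149026 overlapped them. The rise was 0.18 ± 0.04 (log2, SE), adjusted p 0.00148, and it held without each library in turn. It was 0.06 under the GC and length offsets (adjusted p 0.269), after recentring it was called again at 0.11, and with length alone it was not called (0.09).

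Atp5d, the delta subunit at the foot of the rotor, ranged from 110 to 131 CPM in Young (median 115) and from 114 to 142 CPM in Old (median 132). Atp5h, a part of the outer stalk, ranged from 183 to 207 CPM in Young (median 198) and from 180 to 237 CPM in Old (median 217). In Atp5h 7 Old libraries exceeded all Young libraries and d149026 fell below them all, and in Atp5d 5 exceeded and the rest overlapped. Atp5d rose by 0.15 ± 0.05 (log2, SE, adjusted p 0.0217) and Atp5h rose by 0.14 ± 0.05 (adjusted p 0.0368). Without Old d149032 or Young d149009 the adjusted p of Atp5d was 0.0543 and 0.0502. The call of Atp5h ended without any 1 of 10 libraries, with adjusted p of 0.0539 without Old d149025, 0.0576 without d149027, 0.077 without d149028, 0.0715 without d149032 and 0.0576 without d149034. It was 0.0791 without Young d149009, 0.0619 without d149011, 0.0646 without d149017, 0.0597 without d149020 and 0.085 without d159033. Under the GC and length offsets the adjusted p was 0.817 for Atp5d and 0.926 for Atp5h, and the call of Atp5h also ended with no filter.

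Among the genes for the c subunit, Atp5g1 and Atp5g3 hardly moved in aging, with log2 fold changes of 0.03 ± 0.05 and 0.04 ± 0.06 (SE) and adjusted p of 0.708 and 0.696. Atp5g2 had the lowest fold change of the members tested, -0.17 ± 0.39, adjusted p 0.794. Its level spread widely within groups, from 0.283 to 3.98 CPM in Young (median 1.76) and from 0.292 to 3.2 CPM in Old (median 1.8). The groups overlapped over almost their whole range.

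Of the isoforms of low level, Cox6b2 was the 1 called in aging. Cox6b2, the testis form of Cox6b1, ranged from 0.582 to 1.85 CPM in Young (median 1.57) and from 1.85 to 4.08 CPM in Old (median 2.74). Of 8 Old libraries 7 lay above every Young library, and d149034 was level with the highest Young library. This was the largest rise of all members tested, 0.94 ± 0.22 (log2, SE), adjusted p 0.00288, from 3 to 15 counts per library in Young and 12 to 30 in Old. It was the 1 member that was called higher with the GC and length offsets (0.77, adjusted p 0.0129), and it was also called without each library in turn. It had too few counts to be tested where at least 10 were asked for in every library.

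Cox6a2, the heart and muscle form of Cox6a1, fell under the filter on low counts in aging and had no test in the edgeR fit. It had 0 to 3 counts per library in Young and 1 to 13 in Old, which is a median of 0.112 CPM (0 to 0.389) against 0.713 CPM (0.154 to 1.9). Again 7 of 8 Old libraries lay above every Young library, though most of these levels are near the limit set by depth. In the fits that kept the gene, the log2 fold change was 2.65 ± 0.56 (SE) with no filter (adjusted p 0.00125) and 2.81 ± 0.71 by DESeq2 (adjusted p 8.0e-04), past the study's thresholds. Cox4i2, the form known from lung and from cells that sense oxygen, ranged from 0.908 to 2.3 CPM in Young (median 1.58) and from 1.07 to 3.33 CPM in Old (median 2.39), and was not called (0.47 ± 0.26, adjusted p 0.18). Cox7a1 (0.15 ± 0.22, adjusted p 0.652) was not called either, with 1.48 to 3.73 CPM in Young (median 3.12) and 1.77 to 4.38 CPM in Old (median 3.48).

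A further 3 isoforms fell under the filter in aging. Cox8b, the muscle form of Cox8a, had 3 to 10 counts per library in Young and 0 to 7 in Old. With no filter its fold change was -0.85 ± 0.43 (log2, SE, adjusted p 0.179). Cox7b2, the testis form of Cox7b, had 1 to 6 counts in Young and 0 to 4 in Old. Cox8c had 0 counts in all 16 libraries of this comparison, and its level there was under the limit set by depth.

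**Figure D2:**
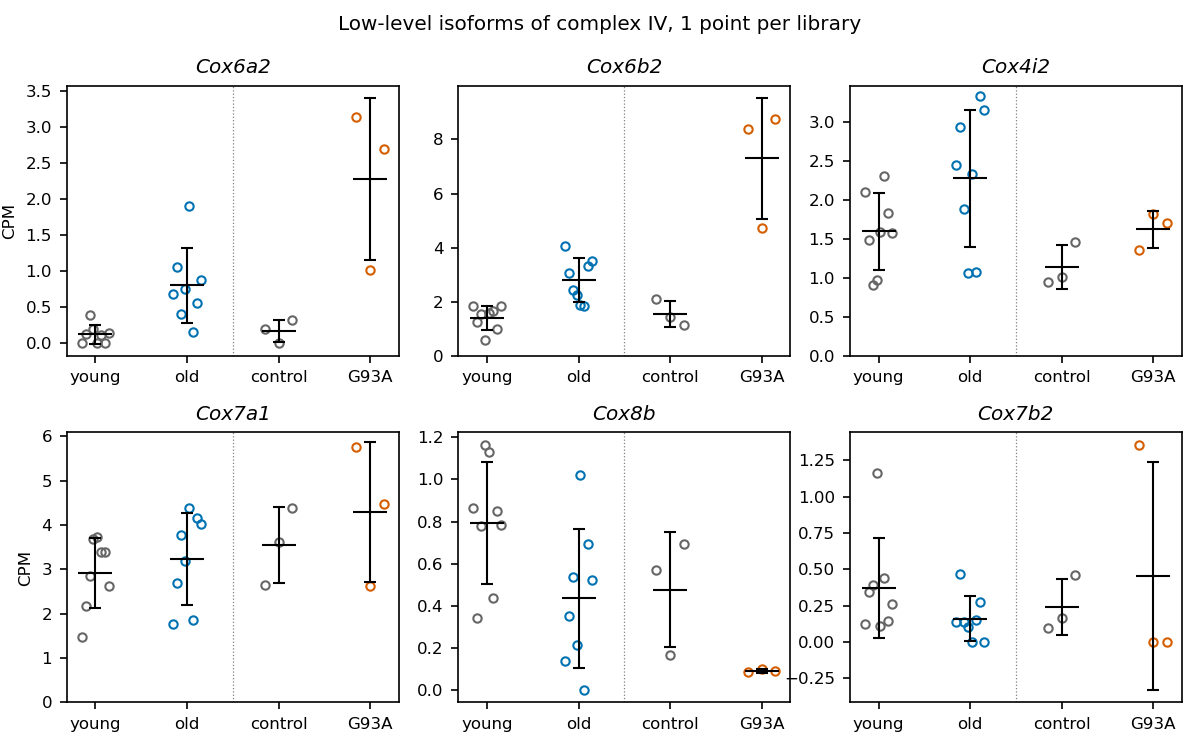
CPM of 6 low-level isoforms of complex IV in each library of the 4 groups, with the mean as a bar and whiskers of 1 SD. Cox6a2 and Cox6b2 are higher in Old than in Young and in G93a than in controls, whereas Cox4i2, Cox7a1, Cox8b and Cox7b2 overlap or lie near 0.

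In the G93a cord some common subunits were called lower, the furthest of them Cox5a, which fell by 24%, while 2 isoforms of complex IV were called higher. Of 45 members tested, 36 had a negative log2 fold change, and the median was -0.20 against 0.003 over all 14386 genes tested. By edgeR 10 of 45 members were called lower in G93a, beside 15.5% of all genes tested, and 2 were called higher, beside 18.4%. At an unadjusted p under 0.05 there were 23 lower and 3 higher, beside 3120 and 3371 of all 14386 genes. DESeq2 called 14 lower and 2 higher, beside 12.6% and 14.2% of genes. Past the study's thresholds were 2 higher, Cox6a2 and Cox6b2, beside 8.5% of genes, and 0 lower by edgeR or DESeq2, beside 1.2% of genes. Of these, Cox6a2 passed the filter on low counts only through its G93a libraries. Among members tested the lowest fold change was -0.43, for Atp5g2. For 28 of 45 members every G93a library lay below every control library, beside 24.7% of genes, and for 3 every G93a library lay above, beside 25.7% of genes. Of these 28, 18 were not called.

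The number of members called lower changes with each library left out of this small experiment. It was 3 without G93a d4435, 0 without G93a d4443, 3 without control d4438, 2 without control d4441 and 0 without control d4444, but 18 without G93a d4437. The share of all genes called lower changed too, from 15.5% to 9.44%, 4.92%, 9.19%, 6.56%, 8.6% and 21.7% in the same order. The median over the members stayed between -0.16 and -0.22 through these exclusions. Genes with transcripts up to 948 bases had a median of 0.09, with 23.3% called higher and 10.2% lower, so short transcripts leaned upward here as in aging while the members leaned downward. With the GC and length offsets 36 members were called lower, beside 3948 of 14386 genes lower and 2099 higher. That setting moved the median of all genes to -0.13, and the members' median relative to it was -0.29. With recentred offsets, an alternative chosen after seeing the data, 25 members were called lower, beside 15.1% of genes, and the fit of all libraries together called 19, beside 22.9% of genes.

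**Figure D3:**
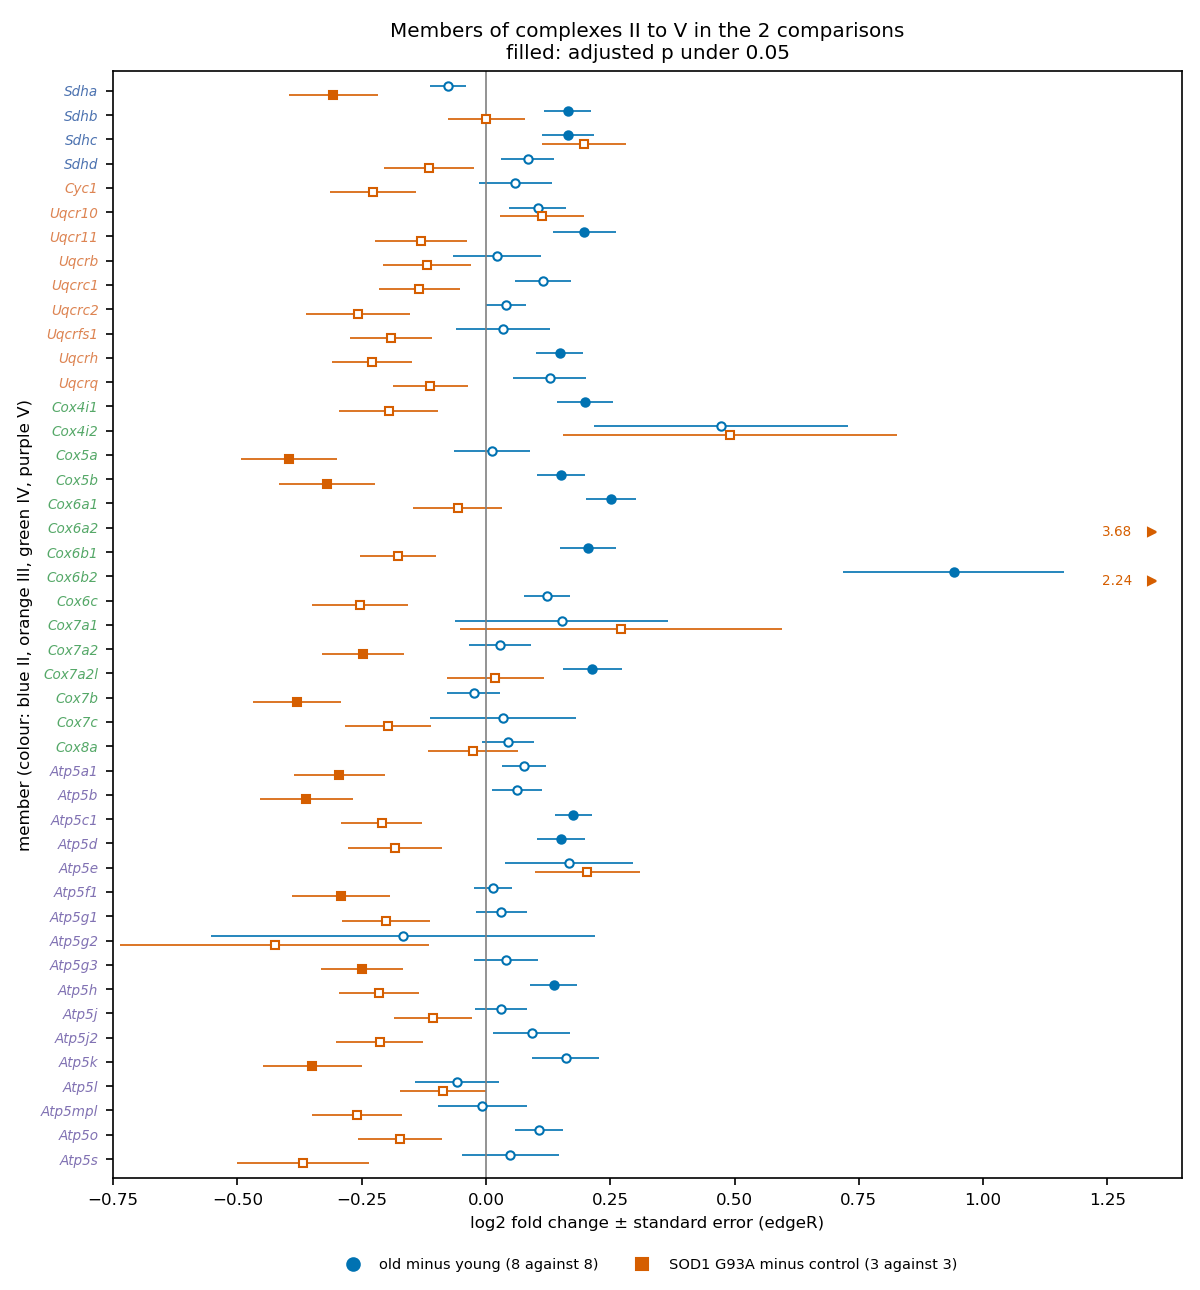
Log2 fold change of each member tested (point) with its standard error (line) in aging (circles) and in ALS (squares), filled where the adjusted p is under 0.05. Genes run by complex from II at the top to V at the bottom. Cox6a2 and Cox6b2 in ALS lie beyond the axis at 3.68 and 2.24, and most squares lie left of the circle of the same gene.

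In complex II, Sdha was the 1 member of 4 called lower, beside 15.5% of all genes. With the GC and length offsets 3 of 4 were, but 1 of 4 after recentring and with length alone. The shares of all genes called lower in these other fits differed too and are in the last section. Sdha had 463, 486 and 483 CPM in controls d4438, d4441 and d4444 and 382, 413 and 362 CPM in G93a d4435, d4437 and d4443, the order used for all genes below. All G93a libraries lay below all controls, and d4437 came nearest to them. The fold change was -0.31 ± 0.09 (log2, SE), adjusted p 0.0275. It was called without d4437 but not without d4435 (adjusted p 0.0615), d4443 (0.123), d4438 (0.0706), d4441 (0.104) or d4444 (0.0909).

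Sdhb had 112.5, 112.9 and 113.1 CPM in controls and 109, 116 and 114 CPM in G93a. The controls were almost equal and the G93a libraries lay on both sides of them, with a fold change of 0.00 ± 0.08 (log2, SE, adjusted p 0.996). Sdhb was called lower at -0.31 with the GC and length offsets. Sdhc had 101, 94.7 and 90.8 CPM in controls and 109, 104 and 115 CPM in G93a. Here all G93a libraries lay above all controls, but the rise of 0.20 ± 0.08 had adjusted p 0.1, and 0.0354 without d4437. Sdhd, the other anchor, had 75.9, 77.7 and 80.4 CPM in controls and 74, 77.7 and 64.6 CPM in G93a, which overlap (-0.12 ± 0.09, adjusted p 0.361).

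Complex III had no member called by edgeR in the reported fit. Of its 9 members 8 had a negative fold change and 4 had an unadjusted p under 0.05, while DESeq2 called 1 lower. Other edgeR fits called 8 of 9 lower with the GC and length offsets, 5 after recentring, 4 with length alone, 2 with all libraries together and 1 with RLE factors. Except for RLE, the shares of all genes called lower in these fits are in the last section, and 2 of 9 is near the share with all libraries together. Relative to all genes, the median of complex III was -0.137 in the reported fit and with all libraries together, and -0.244 with the GC and length offsets. Uqcrh had 135, 128 and 139 CPM in controls and 110, 117 and 117 CPM in G93a. Cyc1, the cytochrome that hands electrons to cytochrome c, had 143, 140 and 129 CPM in controls and 112, 124 and 116 CPM in G93a. In both genes every G93a library lay below every control, with fold changes of -0.23 ± 0.08 (log2, SE, adjusted p 0.0538) and -0.23 ± 0.09 (adjusted p 0.0697).

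Uqcrc2, a core subunit, had 192, 198 and 187 CPM in controls and 156, 184 and 144 CPM in G93a. Again the groups did not overlap, but d4437 was close to the controls and the fold change of -0.26 ± 0.11 (log2, SE) had adjusted p 0.0875. Without d4437 Uqcrc2, Uqcrh and Cyc1 were called lower, with adjusted p of 0.00389, 0.0321 and 0.0204. Uqcr10, a small subunit next to cytochrome c1, was the 1 member of complex III with a positive fold change, 0.11 ± 0.09 (adjusted p 0.334), and its groups overlapped.

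Complex IV had 4 of 15 members called lower, all common subunits, beside 15.5% of all genes. Cox7b, a small membrane subunit, had 133, 138 and 145 CPM in controls and 97.8, 114 and 108 CPM in G93a. Cox5a, a subunit on the matrix side, had 174, 173 and 192 CPM in controls and 127, 150 and 133 CPM in G93a. In both genes the groups stood apart, with d4437 the highest G93a library. Cox7b fell by 0.38 ± 0.09 (log2, SE, adjusted p 0.0125) and Cox5a fell by 0.40 ± 0.10 (adjusted p 0.0139). Without d4443 the adjusted p was 0.0528 for Cox7b and 0.0673 for Cox5a, and without d4444 it was 0.0517 and 0.0591.

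Cox5b had 155, 154 and 181 CPM in controls and 124, 138 and 130 CPM in G93a. Cox7a2, the common form of another small subunit, had 91.7, 81.6 and 88.8 CPM in controls and 71, 74.8 and 74.9 CPM in G93a. In both genes all G93a libraries lay below all controls, with folds of -0.32 ± 0.10 (log2, SE, adjusted p 0.0317) for Cox5b and -0.25 ± 0.08 (adjusted p 0.0457) for Cox7a2. Both kept the call without d4437. Neither did without d4435 (adjusted p 0.0913 for Cox5b and 0.138 for Cox7a2), d4443 (0.109 and 0.114), d4438 (0.0576 and 0.14), d4441 (0.0614 and 0.0625) or d4444 (0.115 and 0.121). For Cox7a2 the call also ended with no filter and with at least 10 counts in every library.

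Other common complex IV subunits were not called. Cox6b1 had 134, 133 and 129 CPM in controls and 116, 118 and 116 CPM in G93a, without overlap (-0.18 ± 0.08, log2 and SE, adjusted p 0.101). Cox4i1 had 343, 306 and 360 CPM in controls and 270, 299 and 312 CPM in G93a (-0.20 ± 0.10, adjusted p 0.162). In Cox4i1 the G93a library d4443 overlapped the lowest control. Cox6a1 had 154, 138 and 155 CPM in controls and 138, 139 and 153 CPM in G93a (-0.06 ± 0.09, adjusted p 0.66), with overlap. Cox8a (-0.03 ± 0.09, adjusted p 0.85), with 150, 155 and 159 CPM in controls and 162, 138 and 157 CPM in G93a, and Cox7a2l (0.02 ± 0.10, adjusted p 0.897), with 137, 126 and 150 CPM and 137, 132 and 149 CPM, overlapped between the groups.

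The testis isoform Cox6b2 rose in G93a. It had 2.09, 1.43 and 1.15 CPM in controls and 8.39, 4.73 and 8.77 CPM in G93a. All G93a libraries were above all controls, and d4437 rose least. The fold change was 2.24 ± 0.33 (log2, SE), adjusted p 0.00182, from 15 to 22 counts per control library and 47 to 99 per G93a library. The call held under each alternative and without each library. Per length, Cox6b2 went from 1.17% ± 0.282 (SD, n = 3) of the summed FPKM of Cox6b1 and Cox6b2 in controls to 5.95% ± 1.68 in G93a, and from 0.689% in Young to 1.29% in Old.

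Cox6a2 rose from almost no reads. It had 0.19, 0 and 0.307 CPM in controls, which is 6 counts over the 3 libraries, and 3.14, 1.01 and 2.69 CPM in G93a, which is 77 counts. All G93a libraries were above all controls, and d4437 was again the lowest of them. The fitted fold change was 3.68 ± 0.72 (log2, SE), adjusted p 0.00595, the largest of all members. The gene passed the filter on low counts through its G93a libraries alone (37, 10 and 30 counts), since controls had 2, 0 and 4. It was thus tested because it was high in G93a, and the test is not independent of that level. The call held without each library in turn, and the gene was not tested where at least 10 counts were asked for in every library. Cox6a2 made up 0.088% ± 0.082 (SD) of its pair with Cox6a1 in controls and 1.3% ± 0.649 in G93a.

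The Cox6a2 gene overlaps Itgad, an integrin of macrophages, on the other strand, and whether the counting separated strands is not stated in the study's text. Itgad had 0.19, 0.168 and 1.23 CPM in controls and 4.58, 0.705 and 1.88 CPM in G93a, with overlap and adjusted p 0.0738. The order of the G93a libraries was the same in both genes at the upper end, with d4435 highest and d4443 next. In aging Itgad was not tested, and its medians of 0.357 CPM in Young and 0.212 CPM in Old are near the limit set by depth. The part that reads of Itgad have in the counts of Cox6a2 was not tested.

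The remaining isoforms gave no call in ALS. Cox4i2 had 0.949, 1.01 and 1.46 CPM in controls and 1.36, 1.81 and 1.7 CPM in G93a, with overlap (0.49 ± 0.34, log2 and SE, adjusted p 0.292). Cox7a1 had 2.66, 3.62 and 4.38 CPM in controls and 5.76, 2.62 and 4.48 CPM in G93a (0.27 ± 0.32, adjusted p 0.551), with d4437 just below the lowest control. Cox8b, Cox7b2 and Cox8c fell under the filter. Cox8b had 2 to 9 counts per control library and 1 count in each G93a library, Cox7b2 had 1 to 6 counts per control library and all of its 16 G93a counts in d4435, and Cox8c had 1 count in all. With no filter the fold change of Cox8b was -2.26 ± 0.89 (log2, SE), adjusted p 0.0841.

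In the reported fit complex V had the most members called lower, 5 of 17, beside 15.5% of all genes, and they include the catalytic head. Complex IV had more than V without d4435 (2 and 1), d4438 (2 and 1) or d4441 (2 and 0). With at least 10 counts in every library each had 3. Atp5b had 1135, 1161 and 1136 CPM in controls and 837, 970 and 865 CPM in G93a. Atp5a1, the alpha subunit that alternates with beta in the head, had 802, 829 and 832 CPM in controls and 630, 723 and 655 CPM in G93a. In both genes the controls lay close together and all G93a libraries fell below them, d4437 least. Atp5b fell by 0.36 ± 0.09 (log2, SE, adjusted p 0.0184) and Atp5a1 fell by 0.30 ± 0.09 (adjusted p 0.0356).

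Atp5k, a small subunit at the membrane end of the stator, had 57.5, 59.4 and 69.5 CPM in controls and 45.9, 51.3 and 49.3 CPM in G93a. The groups did not overlap, and the fold change was -0.35 ± 0.10 (log2, SE), adjusted p 0.026. The calls ended with most libraries left out, while the fold changes stayed between -0.34 and -0.37 for Atp5b, -0.25 and -0.32 for Atp5a1 and -0.26 and -0.38 for Atp5k in those fits. Without d4443 the adjusted p was 0.0838 for Atp5b, 0.129 for Atp5a1 and 0.0851 for Atp5k. Without d4444 it was 0.066, 0.114 and 0.0933, and without d4441 it was 0.0801, 0.122 and 0.06. Without d4438 it was 0.0673 for Atp5b and 0.0932 for Atp5a1, and without d4435 it was 0.0954 for Atp5a1 and 0.084 for Atp5k.

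The other called members of complex V were Atp5f1, a stalk subunit, and Atp5g3, the leading c subunit gene. Atp5f1 had 283, 268 and 256 CPM in controls and 209, 244 and 206 CPM in G93a. Atp5g3 had 201, 196 and 208 CPM in controls and 165, 180 and 165 CPM in G93a. Neither gene overlapped between groups, with folds of -0.29 ± 0.10 (log2, SE, adjusted p 0.0477) and -0.25 ± 0.08 (adjusted p 0.0462). For Atp5f1 the call ended with GC content alone as the offset and with at least 10 counts in every library, and for Atp5g3 with the latter, with no filter and without mitochondrial genes. Both were called without d4437, and with any other library left out the adjusted p lay between 0.0827 (Atp5f1 without d4444) and 0.175 (Atp5f1 without d4443). For Atp5f1 it was 0.122 without d4435, 0.153 without d4438 and 0.125 without d4441, and for Atp5g3 it was 0.122 without d4435, 0.16 without d4443, 0.114 without d4438, 0.101 without d4441 and 0.137 without d4444.

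Of the c subunit genes, Atp5g1 and Atp5g2 were not called. Atp5g1 had 80.4, 85.2 and 91.2 CPM in controls and 69.3, 78.2 and 76 CPM in G93a, without overlap but not called (-0.20 ± 0.09, log2 and SE, adjusted p 0.108). Atp5g2 had 7.12, 8.08 and 6.53 CPM in controls and 6.86, 6.55 and 2.78 CPM in G93a. The latter's fold change of -0.43 ± 0.31 came mostly from d4443 and was not called (adjusted p 0.321). By the deposited FPKM, Atp5g3 gave 69.2% of the c subunit transcripts in G93a beside 69.9% in controls. By recomputed FPKM it had 240 beside 28.3 for Atp5g1 in G93a, and 277 beside 31.5 in controls, so its share was larger in both groups. Atp5e, the epsilon subunit of the rotor, was the 1 member of complex V with a positive fold change, 0.20 ± 0.11 (adjusted p 0.165), and was called without d4437 (0.27, adjusted p 0.0449).

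Taken by complex, the median in ALS was nearest 0 in II and lowest in V. The median log2 fold change in ALS was -0.06 in complex II, -0.13 in III, -0.18 in IV and -0.22 in V, with 1 of 4, 0 of 9, 4 of 15 and 5 of 17 members called lower, beside 15.5% of genes. With the GC and length offsets, relative to all genes, they were -0.21, -0.24, -0.28 and -0.35. The order of III and IV turned without d4437 (-0.189 and -0.181) and without d4443 (-0.171 and -0.169). In aging the medians were 0.12, 0.10, 0.15 and 0.06, with 2 of 4, 2 of 9, 6 of 14 and 3 of 17 members called higher, beside 13.5% of genes. With the GC and length offsets, relative to all genes, they were 0.01, -0.01, 0.04 and -0.01. The differences between complexes were not tested, since members of a complex are not replicates.

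Summed levels weight the abundant members, and in aging their order of complexes is not that of the medians. The CPM of complex V summed to 3653, 3650 and 3696 in controls d4438, d4441 and d4444 and to 2890, 3226 and 3002 in G93a d4435, d4437 and d4443, and the mean fell by 17.1%. The mean of complex IV fell by 12.4%, that of complex III fell by 11% and that of complex II, most of it Sdha, fell by 10.9%. In every complex all 3 G93a libraries lay below all controls. In aging the mean of complex IV rose by 10.1%, from 1880 ± 114 to 2070 ± 113 (SD, n = 8), with 4 Old libraries above every Young library. Complex III rose by 6.69%, complex V by 5.38% and complex II by 0.583%, and in each of these Old overlapped Young, with d149034 the lowest Old library.

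**Figure D4:**
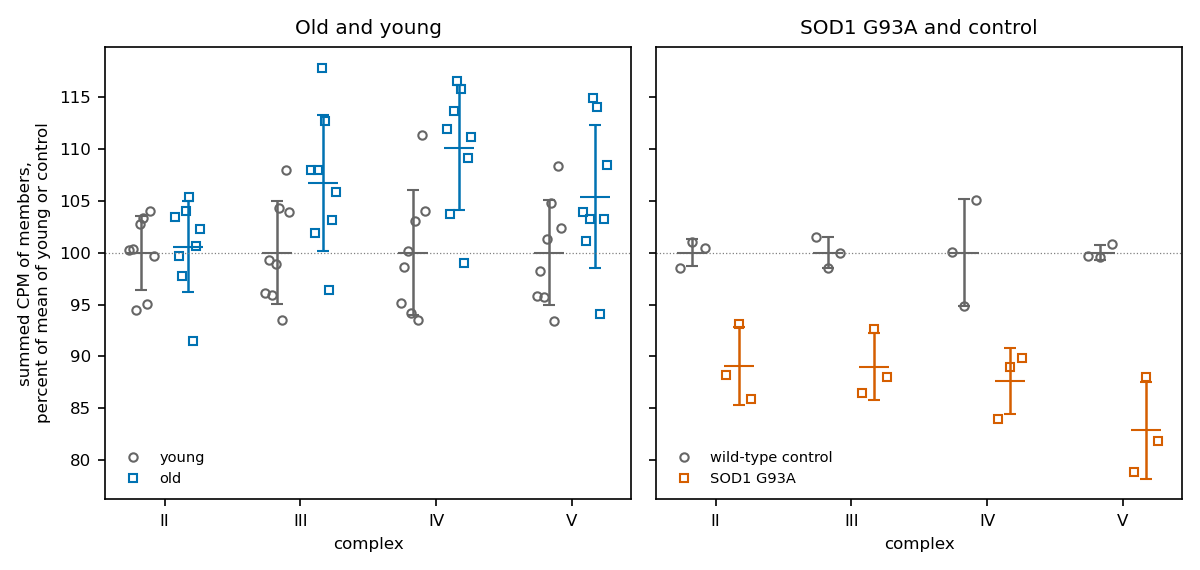
Summed CPM of the members of each complex in each library, as a percentage of the mean of Young or of controls, with group means and whiskers of 1 SD. In ALS every G93a library is below every control in each complex, and in aging the groups overlap, with the clearest shift in complex IV.

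Set side by side, 44 members were tested in both comparisons, which share no libraries. Of these, 31 were positive in aging and negative in ALS, 8 were positive in both and 5 were negative in both. Cox5b was called higher in aging and lower in ALS, and Cox6b2 was called higher in both. Of all genes tested, 49.4% were positive in aging and 49.7% negative in ALS. The shares of all genes in the joint classes were not computed, so these counts are not set against genes in general. Whether a change differs between the experiments was tested directly, as the ALS change minus the aging change in 1 edgeR fit of all 22 libraries. In that fit 19 of 45 members were called more negative in ALS, beside 14.2% of genes, and 1 was called more positive, beside 11.6%. The members' median was -0.30 against -0.001 over all 14502 genes.

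With the GC and length offsets 31 members were called more negative, beside 18.4% of genes, and with DESeq2 21, beside 10.9%. Without each library in turn the number was 15 to 25, beside 8.94% to 18.6% of genes. By complex, 1 of 4 members of complex II, 3 of 9 of III, 7 of 15 of IV and 8 of 17 of V were called more negative. These counts are from the reported fit, where 14.2% of all genes were. The lowest adjusted p was that of Atp5c1, at -0.41 ± 0.08 (log2, SE) and adjusted p 2.4e-04. It was called higher in aging and not called in ALS (adjusted p 0.0773), where it had 222, 219 and 212 CPM in controls and 181, 198 and 185 CPM in G93a without overlap. Cox5b differed by -0.50 ± 0.10 (adjusted p 6.9e-04), Atp5b by -0.45 ± 0.10 (adjusted p 0.00148), Atp5a1 by -0.40 ± 0.09 (adjusted p 0.00164) and Uqcrh by -0.41 ± 0.09 (adjusted p 0.00191). For these 5 genes the call held without each library and under each alternative.

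The 1 member more positive in ALS was Cox6b2, by 1.27 ± 0.40 (log2, SE), adjusted p 0.0197. The adjusted p was 0.0666 without d4435, 0.0685 without d4443, 0.053 without d4441 and 0.0731 without d4444. Cox6a2, called in ALS but left untested by the filter in aging, was not called in the difference (0.95 ± 1.18, adjusted p 0.6). Sdhc, called in aging but not in ALS, had a difference of 0.01 ± 0.10 (adjusted p 0.977).

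**Figure D5:**
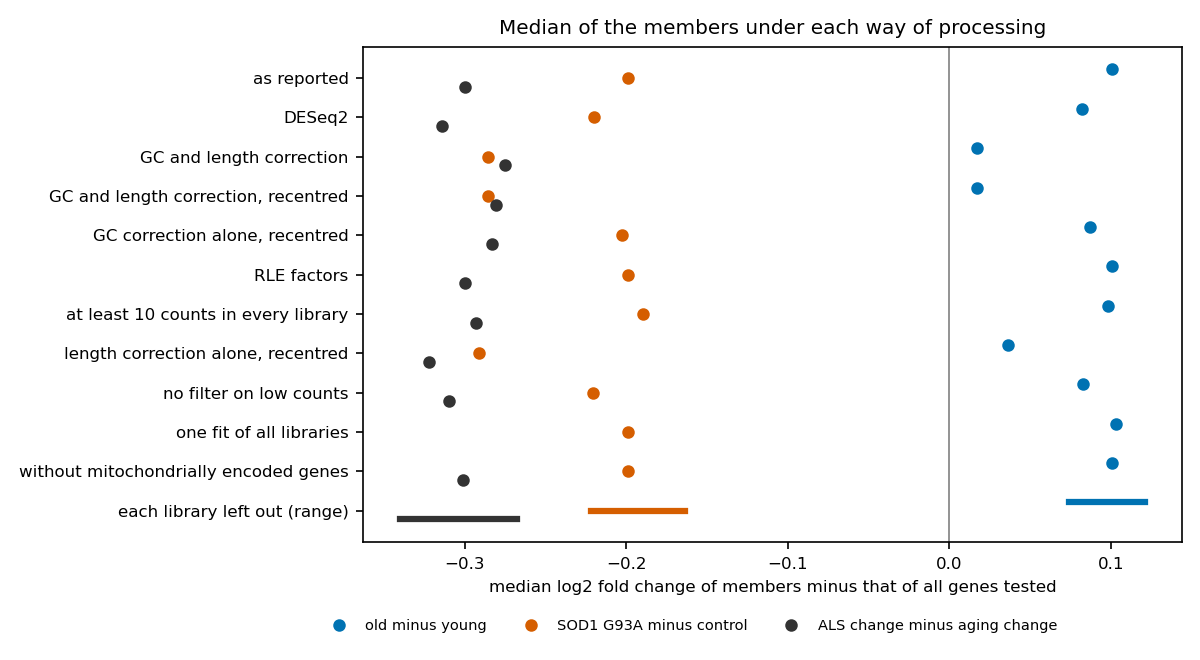
Median log2 fold change of the members minus that of all genes tested, for aging, ALS and the difference between them, under each way of processing, with the range over left-out libraries as bars. The aging median moves towards 0 with offsets for length, the ALS median moves down with them, and the difference stays near -0.3.

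Other genes of the respiratory chain give a setting for these values. Of 36 nuclear subunits of complex I, 7 were called higher and 0 lower in aging, 1 higher and 9 lower in ALS, and 20 more negative and 0 more positive in the difference, with medians of 0.10, -0.21 and -0.30. The shares of all genes given above for the members (13.5% higher and 12.9% lower in aging, 18.4% and 15.5% in ALS, 11.6% more positive and 14.2% more negative in the difference) apply to this and the other lists. Ndufb9 led in aging (0.25, adjusted p 5.1e-04) and Ndufv2 in ALS (-0.42, adjusted p 0.0114). Of the 13 subunits encoded by mitochondrial DNA, 0 were called in aging and 9 were called lower in ALS, with a median of -0.54 and mt-Nd2 first (-0.79, adjusted p 0.00266). In the difference all 13 were negative with a median of -0.64, and 1 of them, mt-Nd4l, was called. The share of all counts from mitochondrial genes was 5.34% to 6.08% in G93a and 7.39% to 8.16% in controls, and it was 13.2% in Old d149034 where the other Old libraries had at most 9.18%.

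Electron carriers and close partners were a further list. Of 7 tested, 1 was called higher in aging and 4 lower in ALS: Atpif1, the inhibitor of the ATP synthase, Higd1a, Ndufa4 and cytochrome c (Cycs). Atpif1 rose by 0.23 in aging (log2, adjusted p 0.0222) and fell by 0.35 in ALS (adjusted p 0.0125), and it was among 3 called more negative in the difference. Usmg5, a subunit of complex V that the symbol rule leaves out, was not called in either comparison. Of 36 assembly factors 3 were higher and 1 lower in aging, 1 higher and 4 lower in ALS, and 7 more negative in the difference. Lrpprc, which stabilises mitochondrial mRNA, was lower in both (-0.26, adjusted p 6.1e-04, and -0.57, adjusted p 0.0116).

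Among 14 regulators of respiratory genes, 1 was called lower in aging and 4 in ALS. Esrrg had 79.9, 90.8 and 79.5 CPM in controls and 27.9, 58.7 and 31.8 CPM in G93a, and fell by 1.09 (log2, adjusted p 0.00986). Ppargc1a had 61.7, 61 and 54.9 CPM in controls and 37, 52.1 and 36.1 CPM in G93a, and fell by 0.51 (adjusted p 0.0246). In both genes, as in most members, d4437 lay between the controls and the other two G93a libraries. Esrra was also called lower (-0.35, adjusted p 0.0171), as was Esrrb (adjusted p 0.0283), with 11, 10.8 and 8.76 CPM in controls and 3.47, 7.86 and 4.03 CPM in G93a. Gabpa was lower in aging (-0.26, adjusted p 0.0182), and in the difference 1 regulator, Gabpa, was more positive in ALS and 4 were more negative. Of 26 genes for mitochondrial membranes and matrix enzymes, 4 were higher and 2 lower in aging, 0 higher and 9 lower in ALS, and 13 more negative in the difference.

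Several lists of cell type markers also moved in these libraries. In ALS 12 of 14 neuron markers were called lower with a median of -0.74, and 7 of 9 motor neuron markers with a median of -0.87 and sums of 404, 428 and 442 CPM in controls and 241, 236 and 226 CPM in G93a. The neuron markers summed to 11528, 12208 and 11970 CPM in controls and 4576, 7610 and 5183 CPM in G93a. Of 14 microglia and macrophage markers 12 were higher in ALS, with sums of 393, 339 and 325 CPM in controls and 4083, 1834 and 3006 CPM in G93a. Astrocyte markers rose too, 5 of 9 higher, from sums of 8213, 7585 and 7751 CPM to 20021, 13187 and 17666 CPM, with Gfap at 11229, 6110 and 10436 CPM in G93a. Oligodendrocyte markers had 1 of 10 called higher, Cldn11, and 0 lower. The part that these changes in cell types have in the values of the members was not tested.

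In aging the same lists moved less evenly. Of 14 microglia and macrophage markers 13 were higher, with a median of 1.70 and Lyz2 at a mean of 6.05 CPM in Young and 175 CPM in Old, and 4 of 9 astrocyte markers were higher and 1 lower. Of 14 neuron markers 7 were lower and 1 higher with a median of -0.16, of 9 motor neuron markers 1 was lower, and of 10 oligodendrocyte markers 6 were lower and 1 higher. The part of these changes in the values of the members was not tested. In the difference 11 neuron and 7 motor neuron markers were more negative in ALS, while 11 microglia, 5 astrocyte and 2 oligodendrocyte markers were more positive and 1 astrocyte marker was more negative.

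The lists for tissue next to the cord gave few calls. Skeletal muscle markers had 1 of 4 tested called higher in aging (Pvalb, which spinal interneurons also express) and 2 of 5 lower in ALS (Pvalb and Myh7). Brown fat markers had 1 of 2 called higher in both comparisons, Cebpa, with Ucp1 and Adipoq under 1 CPM. Schwann cell markers had 1 of 3 higher in aging and 1 of 4 in ALS, Pmp22 both times, and erythroid markers had 0 of 5 called in either. Endothelium and pericyte markers had 1 of 9 lower in aging and 2 higher and 2 lower in ALS. In the difference 2 muscle and 2 endothelium markers were more negative, 1 brown fat and 1 Schwann cell marker were more positive, and 0 erythroid markers were called. The part of these tissues in the values of the members was not tested.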

How the data were processed

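RNA-seq libraries of mouse spinal cord were analysed from the deposited tables, 1 library per mouse. Per the study's text, the authors aligned reads with STAR, used SAMtools 1.3, and summarised them per gene with RSEM on mm10. The first table holds the expected counts of RSEM as the authors deposited them, in whole numbers, and they were used as such. The second table, as the authors deposited it, holds log2(FPKM + 1), which was turned back to FPKM. Members were found by symbol, with biotype, transcript length and overlapping genes from GENCODE M21. The members and the gene lists were chosen with earlier results of these data known.

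Counts were fitted in edgeR 4.0.16 (R 4.3.3, limma 3.58.1) with TMM factors and filterByExpr (minimum count 10, minimum total 15), by quasi-likelihood F tests, with p-values adjusted by Benjamini-Hochberg over all genes tested: 13647 in aging, 14386 in ALS and 14502 in the difference between them, which used 1 fit of 22 libraries. Calls needed an adjusted p under 0.05. Library totals of 5078092 to 13219797 set the precision, and a limit of 3 counts covers counting error only. Fits were tested on simulated data, where few genes were changed, by a log2 fold change of 0.5 or 1. At 0.5 the ALS design missed most of them. Far more genes were called in the real data, so the share missed in the simulation does not carry over to them. Calls on unchanged genes were above what the threshold allows in the ALS design, and slightly above it in the aging design at 0.5. Each setting was simulated only once, so the slight excess in aging cannot be told from chance. Alternatives were DESeq2 1.42.0, RLE factors, no filter, at least 10 counts in every library, all libraries in 1 fit, offsets from GC content and length (loess, span 0.3), mitochondrial genes left out, each library left out, an adjusted p under 0.01, RefSeq names, and FPKM recomputed from counts. The recentred offsets and those from length or GC content alone were added after seeing the data. No library was left out of the reported fits.

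Values by library were given for up to 3 members per complex with the smallest adjusted p in each comparison, for the alternative isoforms, for the members with the largest and smallest fold change, and for up to 5 members with the smallest adjusted p in the difference. Others, such as Cox5a, Cox5b, Atp5f1, Atp5g3, Uqcr10 and Atp5e, were named after their values were seen. Tables and figures used Python 3.11.15, numpy 2.4.6, pandas 2.3.3 and matplotlib 3.10.9.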

Additional observations from a re-analysis of the deposited data

Results flagged for a closer look

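The groups of 8 libraries were each member tested in aging, each summed complex and each summed list, in Young and in Old. Among these 128 groups, 8 held a library whose gap to its nearest neighbour was a large share of the group's range, given below as a ratio. Chance gives about 1 in 20 groups. Uqcrb in Old had a ratio of 0.602, with d149034 highest at 98.9 CPM and the next library at 70.5 CPM. Cox6a1 in Young had a ratio of 0.551, with d159033 lowest at 151 CPM. Cox6c in Young had a ratio of 0.631, with d149019 highest at 181 CPM. Atp5h in Old had a ratio of 0.558, with d149026 lowest at 180 CPM. Atp5l in Young had a ratio of 0.640, with d159033 highest at 57.3 CPM. The summed subunits encoded by mitochondrial DNA in Old had a ratio of 0.541, with d149034 highest at 143489 CPM. The summed regulators in Old had a ratio of 0.536, with d149034 highest at 464 CPM, and the summed erythroid markers in Old had a ratio of 0.619, with d149035 highest at 1092 CPM.

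For 20 members the change in ALS differed from the change in aging by the test of the difference in the edgeR fit of all libraries. In complex II it was Sdha (-0.26, log2 throughout). In complex III it was Uqcr11 (-0.36), Uqcrc2 (-0.33) and Uqcrh (-0.41). In complex IV it was Cox4i1 (-0.42), Cox5a (-0.44), Cox5b (-0.50), Cox6a1 (-0.34), Cox6b1 (-0.41), Cox6c (-0.40) and Cox7b (-0.38), all more negative in ALS, and Cox6b2 (1.27), more positive. In complex V it was Atp5a1 (-0.40), Atp5b (-0.45), Atp5c1 (-0.41), Atp5d (-0.36), Atp5f1 (-0.33), Atp5h (-0.38), Atp5k (-0.54) and Atp5o (-0.31).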

How the results depend on the processing

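No paired analysis was possible because the columns of the tables carry no replicate numbers. In aging, the members called higher came to 1 with the GC and length offsets, 3 with these recentred and 2 with length alone. They came to 5 at an adjusted p under 0.01, and ranged from 8 to 17 without each library. Of all genes, 9.94%, 13.4%, 12.3%, 1191 of 13647, and 11.9% to 15.9% were called higher in the same order. Members called lower came to 1 with DESeq2, 2 with the GC and length offsets, 1 with these recentred and 1 with length alone. Of all genes, 9.75%, 14.4%, 8.64% and 9.82% were called lower in the same order. Past the study's thresholds was 1 member with DESeq2, with no filter and in the fit of all libraries, which is Cox6a2, and 0 or 1 without each library. The aging median was -0.019 with the GC and length offsets, where all genes had -0.036 and Sdhb (-0.007), Cox5b (-0.014) and Atp5j (-0.13) were negative. Recentred, the median was 0.03, Sdhb 0.04 and Cox5b 0.04. In ALS, 36 members were called lower with the GC and length offsets, 25 with these recentred, 25 with length alone and 19 in the fit of all libraries. It was 0 at an adjusted p under 0.01, and 0 to 18 without each library. Of all genes, 27.4%, 15.1%, 14%, 22.9%, 686 of 14386, and 4.92% to 21.7% were called lower in the same order. The ALS median was -0.42, -0.27 and -0.27 in the first 3 of these settings, and Sdhb was -0.31 in the first, where all genes had -0.13. Members called higher in ALS were 1 with at least 10 counts in every library, also past the study's thresholds, and 2 to 4 without each library. Of all genes, 17.8% and 11.3% to 23.8% were called higher in these fits. In the difference, 31 members were more negative with the GC and length offsets, beside 18.4% of genes. More positive were 0 with at least 10 counts in every library, 0 at an adjusted p under 0.01, and 0 to 1 without each library. Of all genes, 13.5%, 975 of 14502, and 7.36% to 15.1% were more positive in the same order. The median of the difference ranged from -0.34 to -0.23 without each library. The cause of these shifts was not tested. At an adjusted p under 0.01 there were 14 more negative, beside 1276 of 14502 genes. At 0.05, members called in the difference kept the call in 179 of 179 tests by other fits, which leave out Cox6b2 where at least 10 counts are asked for, and in 422 of 440 exclusions of a library. Cox7b2, Cox8b and Cox8c fell under the filter of the reported fits.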
